A study of Rattus norvegicus with 6 samples.

Results

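The 9 transcripts described here encode proteins of the tight junction of the blood–brain barrier (BBB), namely Ocln, Marveld2, Cldn4, Cldn5, Cldn12, F11r, Jam2, Tjp1 and Cgn. They were taken by gene name from the 33566 genes of the count table, in which each of the 9 names occurs once. RNA was sequenced from primary rat brain microvascular endothelial cells (rBMECs), the cells that line brain capillaries. The cells came from the brain of SD rats aged 18 to 22 days, from the cortex by the labels and the forebrain by the paper. They were treated after 1 passage for 24 h with 100 μM homocysteine (Hcy, 3 libraries) or with its water vehicle (Veh, 3 libraries). The labels also speak of a 50 μM Hcy solution, so the dose rests on the treatment field. The replicates are called biological, but whether they came from separate cell isolations is not given in the sources used here. Each p-value therefore sets the group difference against the spread between these libraries, and may not extend to separate isolations.

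Tight junctions seal the cleft between neighbouring endothelial cells. Claudins form the paracellular strands, while occludin and tricellulin, which share the MARVEL membrane domain, lie within the strands and at tricellular corners. Junctional adhesion molecules (JAMs) are immunoglobulin-type proteins that help to assemble the junction, and ZO-1 and cingulin link it to the actin cytoskeleton from the cytoplasmic side. In brain endothelium, Claudin-5 is the claudin best known for sealing the barrier to small molecules.

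Libraries held 14024997 to 16764584 counts. Veh replicate 3 stood apart from the other Veh libraries on the second principal component, at 30.4 against -16.0 and -19.0. Among the endothelial markers, Vwf and Cdh5 had the highest levels, Vwf averaging 2934 CPM (counts scaled to a common library size) with Hcy and 2288 CPM with Veh, and Cdh5 1962 and 1796 CPM. Robo4 was the lowest, with 331, 349 and 56 counts with Hcy and 91, 63 and 39 with Veh. The test was passed at an adjusted p of 0.05 by 0 of 16 endothelial markers in edgeR and by 4 (Vwf, Kdr, Eng and Sox17) in DESeq2, and 7 had an unadjusted p of at most 0.05 in edgeR. Over all genes tested, 2.34% passed edgeR's adjusted p, 13.4% its unadjusted p and 4.19% the adjusted p of DESeq2. Of 10 brain endothelial genes tested, 2 were higher and 8 lower with Hcy, and 1 in each direction (Slc7a5 and Lsr) had an adjusted p within 0.05. By unadjusted p 5 of them passed in edgeR, and 3 (Lsr, Slc2a1 and Slc7a5) by the adjusted p of DESeq2. The groups did not overlap for 5 of the 10, 1 higher and 4 lower with Hcy, against 20.1% of all genes tested. Slco1a4 averaged 3.57 CPM with Hcy and 5.17 CPM with Veh (edgeR's adjusted p = 0.187), and Mfsd2a 3.08 and 4.18 CPM (edgeR's adjusted p = 0.346). Both were lower in each Hcy library than in each Veh library. In bulk RNA, fewer cells of a type and less RNA per cell cannot be told apart.

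Of the 9 tight junction transcripts, 8 had the 10 summed counts required for testing and Cldn5 had 0. Of the 8, Cldn4, a claudin with few counts, was lower with Hcy and the only one that passed the test. The transcripts of ZO-1, occludin, JAM-2, cingulin and Claudin-12 overlapped between the groups. Those of JAM-A and tricellulin were higher with Hcy with no overlap, but did not pass the test. Such a separation, higher with Hcy, was found for 10.8% of all genes tested. The log2 fold change of tricellulin was 0.34, and 0.17 without Veh replicate 3. Calls required an adjusted p of at most 0.05 from edgeR together with a log2 fold change of 1 or more in size. Over all 14603 genes tested, 0.486% were called, 0.233% as lower with Hcy. Across the 8 transcripts the median log2 fold change was 0.039, with 4 positive and 4 negative, against -0.015 over all genes tested.

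**Figure D1:**
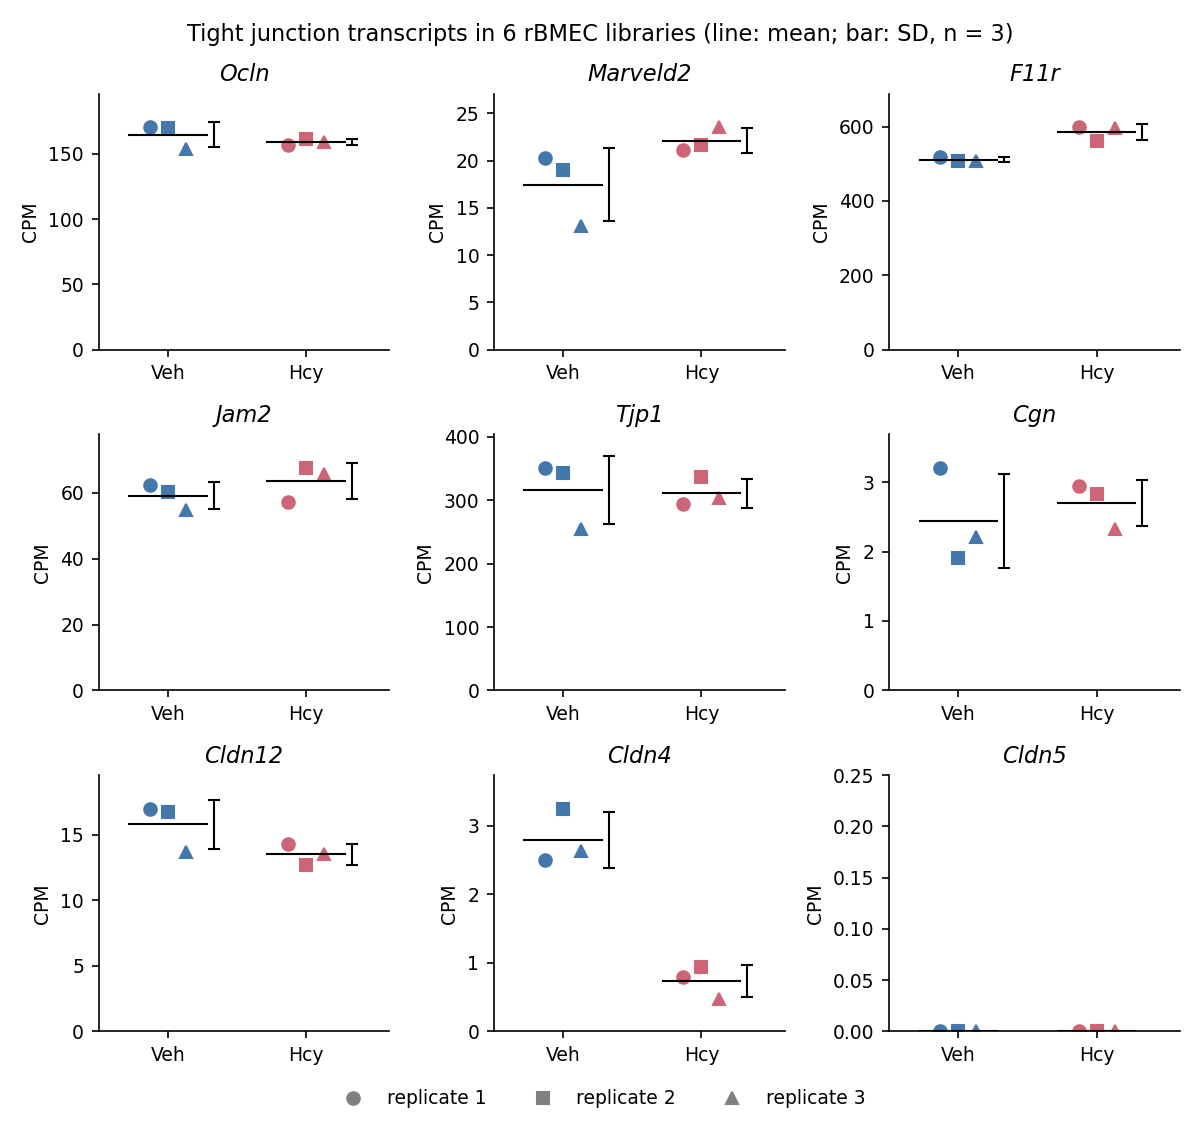
CPM of each tight junction transcript (y axis, starting at 0) in the 3 Veh and 3 Hcy libraries; symbols mark the replicate number, horizontal lines the group mean and bars the SD. Cldn4 lies at 0.477 to 0.940 CPM with Hcy and 2.49 to 3.25 CPM with Veh, Cldn5 is at 0 throughout, and Veh replicate 3 is the lowest library for Ocln, Marveld2, F11r, Jam2 and Tjp1.

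**Figure D2:**
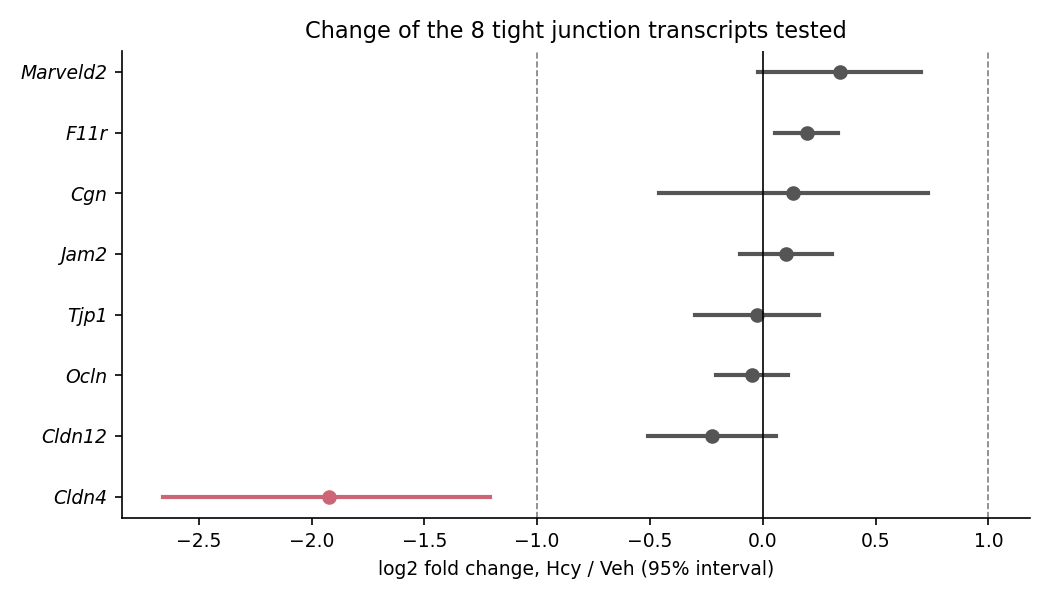
Log2 fold change of Hcy relative to Veh (x axis) for the 8 transcripts tested, with the 95% interval from the edgeR fit; dashed lines mark a change of 1 in either direction. The interval of Cldn4, from -2.66 to -1.21, lies beyond the dashed line, and those of the other 7 lie within both lines.

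Cldn4 encodes Claudin-4, best known from tight epithelia. The gene (ENSRNOG00000001476) is listed on chromosome 12, 24761210 to 24763005, plus strand. The table names no genome build for its positions, which may not be those of mRatBN7.2, the assembly named in the submitters' processing notes. Replicates 1 to 3 held 11, 14 and 8 of its counts with Hcy, against 42, 51 and 38 with Veh. Each Hcy library was thus below each Veh library. With Hcy the level fell to 0.736 ± 0.236 CPM (mean ± SD of 3 libraries, as for all such values below) from 2.79 ± 0.403 CPM. This is a log2 fold change of -1.92 with a standard error of 0.32 (edgeR's adjusted p = 0.0165), or 0.264 of the Veh level with a 95% interval of 0.158 to 0.432. Cldn4 had 164 counts over the 6 libraries. Its call depended on which libraries were used. Without Hcy replicate 1, 2 or 3 the adjusted p was 0.0816, 0.0516 or 0.0809, and without Veh replicate 1 or 2 it was 0.0536 or 0.0724, while without Veh replicate 3 it was 0.0112. The log2 fold change stayed between -2.14 and -1.68 in these fits.

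Epithelial genes were measured beside Cldn4, since that claudin is known from epithelium. Of the 16 epithelial and mesothelial markers listed, 7 could be tested and Epcam, Krt18, Krt19, Crb3 and Grhl2 had 1, 3, 4, 2 and 8 counts over all 6 libraries. Cdh1, the epithelial cadherin, had 20 counts. Msln had 212 counts, at 2.29 CPM with Hcy and 2.33 CPM with Veh (edgeR's adjusted p = 0.979). St14 had 448 counts, at 4.56 CPM with Hcy and 5.15 CPM with Veh (edgeR's adjusted p = 0.75). The summed level of the list was 390 to 424 CPM with Hcy and 555 to 712 CPM with Veh, and nearly all of it was Krt7, a keratin gene at 396 ± 17.3 CPM with Hcy and 605 ± 84.7 CPM with Veh (log2 fold change -0.61, edgeR's adjusted p = 0.016). Without Hcy replicate 1, 2 or 3 the adjusted p of Krt7 was 0.0762, 0.0894 or 0.103. The part of these genes in the Cldn4 result was not tested.

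Cldn12 encodes Claudin-12, a widely expressed family member. In the table Cldn12 (ENSRNOG00000039862) spans 25686392 to 25692547 of chromosome 4 on the plus strand. It had 199, 189 and 227 counts with Hcy and 286, 263 and 197 counts with Veh. Veh replicate 3 lay among the Hcy libraries and the other Veh libraries lay above them. Its log2 fold change of -0.23 had a 95% interval of -0.51 to 0.058 and did not pass the test (adjusted p = 0.505). Without Veh replicate 3 it was -0.32 (adjusted p = 0.14 from edgeR's test).

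Cldn5 encodes Claudin-5 and could not be measured, with 0 counts in each of the 6 libraries. For reads assigned to the gene, a count of 0 allows up to 3 counts per library, or 0.178 to 0.215 CPM, a limit for counting error only. In the deposited positions Cldn5 (ENSRNOG00000045811) lies on the minus strand of chromosome 11 from 86356294 to 86357718. All 1425 of these bases fall inside Cdc45, a DNA replication gene listed on the plus strand from 86329012 to 86358453. In RefSeq's annotation of the GRCr8 assembly the same genes do not overlap. Cdc45 had 236, 269 and 292 counts with Hcy and 165, 154 and 152 counts with Veh, which is higher in each Hcy library (log2 fold change 0.80, adjusted p = 0.00817 from edgeR's test, and 0.0541 without Hcy replicate 3). Counting programs commonly leave out reads that fall on more than 1 gene, and whether this set the Cldn5 count was not tested. The value of 0 therefore gives no level for Claudin-5 transcripts in these cells.

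Of the 25 claudin-type genes listed, 24 were in the table, 8 had 0 counts in all libraries and 8 could be tested. The adjusted p was at most 0.05 for Cldn4 alone among those 8. The claudin-domain gene Cldnd1 had the most counts of the list, at 64.2 CPM with Hcy and 58.7 CPM with Veh. Per kb of gene length, and leaving aside Cldn5, for which the table gives no level, Cldn12 led the numbered claudins and made up 55.9% ± 2.00 of their summed level with Hcy and 48.2% ± 2.39 with Veh. Cldn4 made up 5.89% ± 1.89 with Hcy and 16.5% ± 1.82 with Veh. The summed claudin level was 6.73 to 7.36 CPM per kb with Hcy and 8.48 to 10.1 CPM per kb with Veh. Cldn1, second in level, had 62, 65 and 69 counts with Hcy and 129, 97 and 79 counts with Veh. The groups of Cldn1 did not overlap, but its log2 fold change of -0.58 did not pass the test (adjusted p = 0.179).

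Ocln encodes occludin. In the table Ocln (ENSRNOG00000018297) spans 30527715 to 30577218 of chromosome 2 on the minus strand. Its counts of 2188, 2407 and 2671 with Hcy and 2875, 2670 and 2220 with Veh correspond to 157, 162 and 159 CPM against 171, 170 and 154 CPM. The Hcy libraries lay within the range of the Veh libraries. The 95% interval of the log2 fold change ran from -0.21 to 0.11, which is a change between -13.5% and 8.11%. A halving or doubling of the occludin transcript thus lay outside the interval. Without Veh replicate 3, the lowest library, the log2 fold change was -0.10 (adjusted p = 0.358 from edgeR's test).

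Marveld2 encodes tricellulin, which seals the corners where 3 cells meet. In the table Marveld2 (ENSRNOG00000052167) spans 30612106 to 30634243 of chromosome 2 on the minus strand. It had 294, 323 and 395 counts with Hcy, or 21.1, 21.7 and 23.6 CPM, and 341, 299 and 189 counts with Veh, or 20.2, 19.1 and 13.1 CPM. The Hcy libraries were above the Veh libraries, narrowly so for Veh replicate 1. A log2 fold change of 0.34 had a 95% interval of -0.021 to 0.70 and did not pass the test (adjusted p = 0.409). Without Veh replicate 3 it was 0.17 (adjusted p = 0.395 from edgeR's test). Per kb, Ocln exceeded Marveld2 by a factor of 4.37 to 4.82 in the Hcy libraries and 5.45 to 7.60 in the Veh libraries. This ratio was chosen after its values were seen.

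F11r encodes JAM-A and was the most abundant of the 8 transcripts measured. The gene (ENSRNOG00000004414) is listed on chromosome 13, 89826254 to 89850612, plus strand. It had 8347, 8351 and 9975 counts with Hcy, or 599, 561 and 595 CPM. In Veh it had 8738, 7964 and 7329 counts, or 519, 507 and 507 CPM. The groups did not overlap, and the Veh libraries lay within a few percent of each other. This was a log2 fold change of 0.20, a difference of 14.5% with a 95% interval of 3.94% to 26.1% (edgeR's unadjusted p = 0.0115, adjusted p = 0.183). It did not pass the test over all genes. The adjusted p ranged from 0.0563 to 0.519 when single libraries were left out, and from 0.106 to 0.267 in the other alternatives. A second gene of the table shares the Swiss-Prot match of F11r, but it held only 47 to 97 counts per library.

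Jam2 encodes JAM-2, another immunoglobulin-type protein of endothelial junctions. In the table Jam2 (ENSRNOG00000042848) spans 24266345 to 24285275 of chromosome 11 on the plus strand. It had 798, 1007 and 1101 counts with Hcy, or 57.3, 67.6 and 65.7 CPM, and 1053, 947 and 791 counts with Veh, or 62.5, 60.3 and 54.8 CPM. The groups overlapped. Its log2 fold change was 0.10, with a 95% interval of -0.10 to 0.31 (adjusted p = 0.706 from edgeR's test), and it ran from 0.050 without Veh replicate 3 to 0.17 without Hcy replicate 1. In the deposited positions Jam2 lies inside Gabpa, a transcription factor gene on the same strand of chromosome 11 with 564 to 772 counts per library, and whether shared reads were left out was not tested. In RefSeq's GRCr8 annotation Jam2 and Gabpa do not overlap. Gabpa had a log2 fold change of 0.04.

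Tjp1 encodes ZO-1, the scaffold that binds claudins and occludin. The gene (ENSRNOG00000011077) is listed on chromosome 1, 126146489 to 126227469, minus strand. It had 4085, 5014 and 5076 counts with Hcy and 5915, 5382 and 3681 counts with Veh. The corresponding levels were 293, 337 and 303 CPM with Hcy and 351, 343 and 255 CPM with Veh. Veh replicate 3 was the lowest of the 6 libraries, and the other Veh libraries were the highest. The 95% interval of the log2 fold change ran from -0.30 to 0.25. Without Veh replicate 3 the log2 fold change was -0.16 (adjusted p = 0.195 from edgeR's test), and without Veh replicate 1 it was 0.059.

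Cgn encodes cingulin, which ties the junction to actomyosin. The gene (ENSRNOG00000020952) is listed on chromosome 2, 195909626 to 195935878, minus strand. It had 41, 42 and 39 counts with Hcy and 54, 30 and 32 counts with Veh. The Hcy libraries lay inside the Veh range. Its log2 fold change was 0.14 with a 95% interval of -0.46 to 0.73, so that changes of up to -27.2% or 65.9% could not be told from 0 at this depth. Its relative Cgnl1, which encodes paracingulin, was at 1391 CPM with Hcy and 1379 CPM with Veh (log2 fold change 0.013, standard error 0.075). Per kb the level of Cgnl1 was 394 times that of Cgn with Hcy and 431 times with Veh.

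Ordered by mean level per kb over the 6 libraries, F11r led at 230.4 CPM per kb, followed by Tjp1 at 45.3, Ocln at 37.7, Jam2 at 15.7, Marveld2 at 7.11, Cldn12 at 4.21, Cldn4 at 0.982 and Cgn at 0.505 CPM per kb. F11r alone made up 68.9% ± 1.70 of the summed level of these 8 with Hcy and 65.8% ± 2.52 with Veh. Tjp1 and Ocln overlapped, at 36.8 to 50.8 and 35.7 to 39.7 CPM per kb, although Tjp1 was above Ocln within each of the 6 libraries. Cldn4 was above Cgn in each Veh library. In Hcy their means were 0.410 and 0.530 CPM per kb, and their ranges overlapped. These levels assume the deposited gene lengths.

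**Figure D3:**
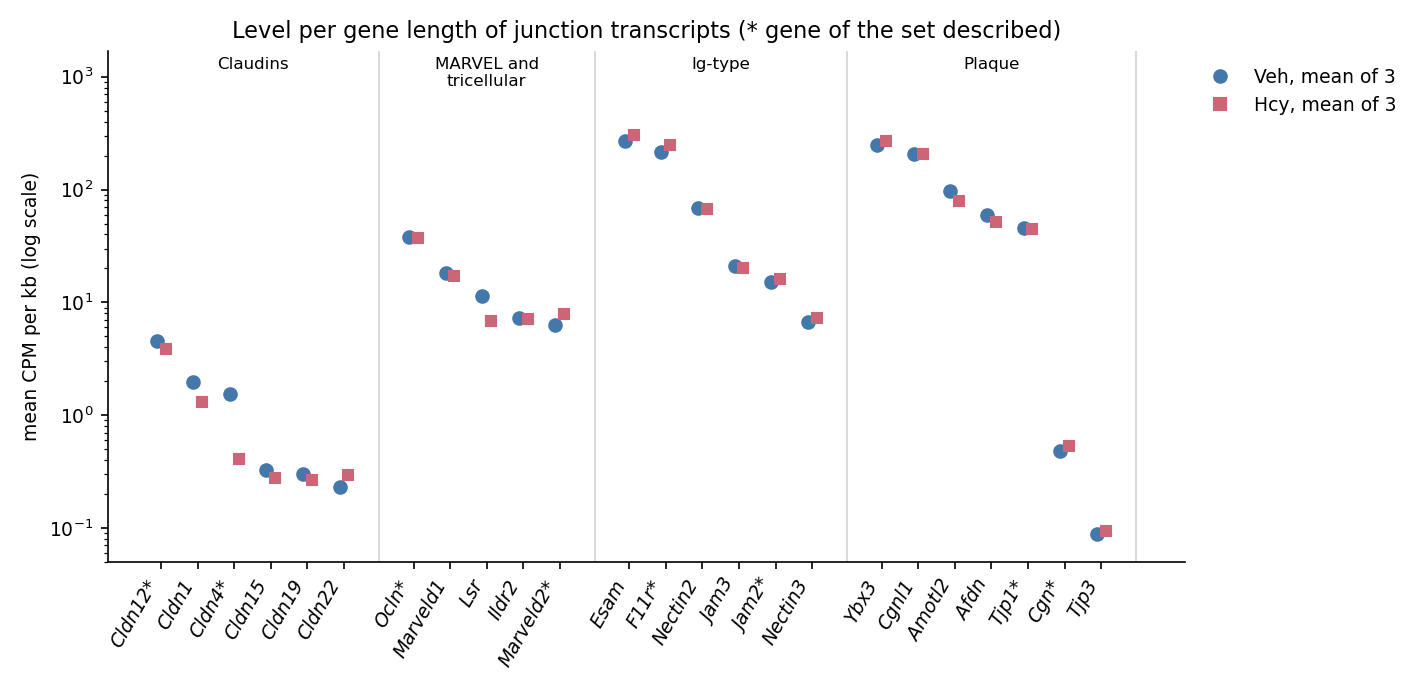
Mean CPM per kb of gene length (y axis, log scale) with Veh (circles) and Hcy (squares) for the tight junction transcripts described (asterisks) and other genes of the same families; each point is a mean of 3 libraries. F11r and its relative Esam lie above 200 CPM per kb, whereas the 6 claudins plotted lie below 5 CPM per kb.

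Among the 8 transcripts tested, the groups did not overlap for Cldn4, F11r and Marveld2. Non-overlapping groups were found for 20.1% of all genes tested, 10.8% higher and 9.27% lower with Hcy. Veh replicate 3 was the lowest of the 6 libraries for 5 of the 8 transcripts, as it was for 23.5% of all genes tested. Over the 6 libraries, log2 CPM of Tjp1 and Ocln had a Pearson correlation of 0.91, and Cldn4 and F11r one of -0.97. These pairs had the highest and the lowest correlation among the 8 transcripts. Tjp1 and Ocln, with log2 fold changes of -0.024 and -0.048, were both lowest in Veh replicate 3. Cldn4 and F11r did not overlap between the groups. The correlations are descriptions over 6 libraries.

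The start regions of the transcripts were available for 8 of the 9 genes in RefSeq's GRCr8 annotation, and Cldn4 had no entry. The E-box CACCTG (reverse complement CAGGTG), the motif known for binding repressors of the Snail family, was searched on both strands from 250 bases before to 50 bases after each start. It was present in Ocln and F11r, 2 of the 8, and in 18.8% of all 33469 such regions. These regions are shown because they hold the motif, which is in capitals.
Ocln, chr2:33441149-33441448, minus strand: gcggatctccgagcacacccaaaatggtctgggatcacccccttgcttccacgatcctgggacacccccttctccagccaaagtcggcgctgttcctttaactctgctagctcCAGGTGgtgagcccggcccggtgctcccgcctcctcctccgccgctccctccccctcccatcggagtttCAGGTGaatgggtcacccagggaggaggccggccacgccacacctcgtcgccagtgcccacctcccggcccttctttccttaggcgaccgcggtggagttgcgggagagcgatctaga
F11r, chr13:86405979-86406278, plus strand: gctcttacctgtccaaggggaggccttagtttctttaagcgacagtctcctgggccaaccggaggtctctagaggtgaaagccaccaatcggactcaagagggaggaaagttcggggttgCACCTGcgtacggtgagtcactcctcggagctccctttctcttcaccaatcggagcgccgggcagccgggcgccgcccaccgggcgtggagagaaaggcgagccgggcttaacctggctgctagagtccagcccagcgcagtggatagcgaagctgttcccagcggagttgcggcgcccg
In Ocln the matches began 137 and 68 bases before the start, and in F11r the match began 130 bases before it. Binding was not measured in these data.

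Other genes of the junction were examined in 6 lists by role, 98 gene symbols in all, of which 73 could be tested. In addition to Cldn4, the adjusted p was at most 0.05 for Lsr, and at this threshold without the fold change 2.34% of all genes passed, 1.01% as lower with Hcy. Lsr was 1 of 5 MARVEL and tricellular genes tested. Lsr encodes angulin-1, which recruits tricellulin to tricellular corners. It had 208, 188 and 255 counts with Hcy and 420, 338 and 351 counts with Veh, with each Hcy library below each Veh library. Its mean level was 14.3 CPM with Hcy and 23.6 CPM with Veh, and the log2 fold change of -0.73 had a 95% interval of -0.99 to -0.46 (edgeR's adjusted p = 0.0156). This is under the fold-change threshold, and the adjusted p was above 0.05, at up to 0.0799, in 4 of the 6 cases in which a library was left out (Hcy replicate 1, 2 or 3 or Veh replicate 1).

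Of the other lists, 0 of 9 immunoglobulin-type junction genes, 0 of 21 plaque genes, 0 of 12 polarity genes and 0 of 18 regulators of the endothelial barrier reached an adjusted p of 0.05 in edgeR's test. At an unadjusted p of 0.05 the counts were 1, 2, 1 and 3, where 13.4% of all genes passed. In DESeq2 they were 0, 1 (Amotl2), 0 and 1 (Sox17) by adjusted p, where 4.19% of all genes passed. Esam, an endothelial adhesion molecule, was at 612 CPM with Hcy and 550 CPM with Veh, and Jam3 was at 37.9 and 39.6 CPM. Nectin2 was at 219 and 220.3 CPM, Ybx3 at 498 and 456 CPM, and of the polarity genes Prkci was at 75.6 and 91.9 CPM (adjusted p = 0.127), Dlg1 at 67.3 and 68.5 CPM and Scrib at 69.9 and 68.1 CPM. Amotl2, an angiomotin family gene, was lower in each Hcy library, at 368 ± 13.5 CPM against 456 ± 22.1 CPM, with a log2 fold change of -0.31 and an adjusted p of 0.0547 from edgeR's test. Its adjusted p was 0.00441 without Veh replicate 3 and 0.159 to 0.245 without any of the other libraries, and with all libraries it was 0.0855 with the replicate block, 0.0486 with at least 1 count required, 0.045 with filterByExpr and 0.00507 in DESeq2. Among the regulators, Sox17, an endothelial transcription factor, was at 128 and 105 CPM (adjusted p = 0.0983), Ctnnb1, which encodes β-catenin, at 614 and 554 CPM (adjusted p = 0.438), and Erg at 380 and 393 CPM (adjusted p = 0.862 from edgeR's test). Sox18, another endothelial transcription factor, was at 108 and 103 CPM (adjusted p = 0.845). The others with an unadjusted p of at most 0.05 were lower in each Hcy library, namely Tek, an angiopoietin receptor, at 244 against 289 CPM (adjusted p = 0.224) and Nr3c1, the glucocorticoid receptor gene, at 74.1 against 91.6 CPM (adjusted p = 0.152 from edgeR's test). The median log2 fold change over the 65 junction genes tested outside the 9 was -0.035, against -0.015 over all genes tested.

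**Figure D4:**
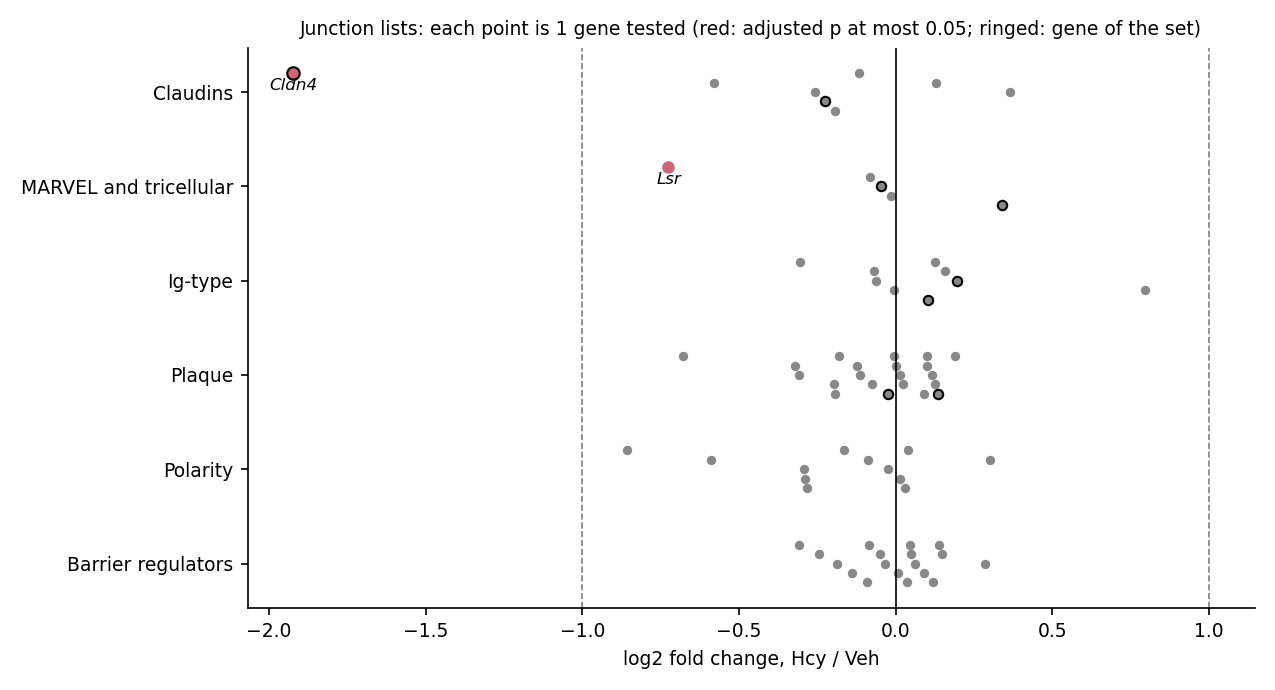
Log2 fold change of Hcy relative to Veh (x axis) of each junction gene tested, by list; red points had an adjusted p of at most 0.05, black rings mark the tight junction transcripts described, and dashed lines mark a change of 1. Cldn4 at -1.92 is the only point beyond a dashed line, and Lsr lies at -0.73.

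Markers of other cell types were also measured. Pericyte markers summed to 5.55 to 8.06 CPM with Hcy and 3.89 to 5.05 CPM with Veh, and astrocyte markers to at most 1.66 CPM. Oligodendrocyte markers summed to 10.6 to 12.4 CPM with Hcy and 11.3 to 11.4 CPM with Veh. Neuron markers summed to 7.05 to 9.77 CPM with Hcy and 5.22 to 7.18 CPM with Veh. Microglia and leukocyte markers summed to 1.68 to 2.66 CPM with Hcy and 1.45 to 1.72 CPM with Veh. Fibroblast and meningeal markers summed to 45.0 to 68.7 CPM with Hcy and 63.5 to 91.4 CPM with Veh. Of the 4 tested, 3 were higher with Hcy and 1, Col1a1, was lower in each Hcy library. The log2 fold change of Col1a1 was -0.52 (adjusted p = 0.264 from edgeR's test). Smooth muscle and contractile genes summed to 736 to 768 CPM with Hcy and 1167 to 1404 CPM with Veh. By adjusted p alone 3 of the 7 tested were lower and 1 was higher, against 2.34% of all genes in either direction. Cnn1 was the 1 called, against 0.486% of all genes, at 8.22 ± 1.32 CPM with Hcy and 21.5 ± 1.09 CPM with Veh (log2 fold change -1.39, adjusted p = 0.00177 from edgeR's test). Tagln, the most abundant of them, had a log2 fold change of -0.88 (adjusted p = 0.000801), and Acta2 one of -0.64 (adjusted p = 0.0248). Without Hcy replicate 1, 2 or 3 or Veh replicate 1, the adjusted p of Acta2 was 0.0816, 0.114, 0.146 or 0.101. Smtn, which encodes smoothelin, was higher with Hcy, at 47.9 ± 3.37 CPM against 32.5 ± 4.49 CPM (log2 fold change 0.56, edgeR's adjusted p = 0.0379). Its adjusted p was above 0.05, at up to 0.192, when any library but Veh replicate 3 was left out. Mylk, a myosin kinase gene, had a log2 fold change of 0.44 (adjusted p = 0.272), while Myh11, a defining smooth muscle gene, was at 1.20 CPM with Hcy and 1.23 CPM with Veh. Their part in the tight junction results was not tested.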

How the data were processed

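RNA-seq counts of 3 Hcy and 3 Veh libraries of rBMECs were analysed, grouped by their labels. The authors deposited a table of unnormalized read counts per gene, with gene positions of no named build and gene lengths. The submitters' processing notes name fastp, HISAT2 2.2.1, StringTie 2.2.3, Cufflinks, featureCounts 2.0.6 and DESeq2 1.42.0, and mRatBN7.2. Whether counting used strand is not given in the sources used here, so reads of overlapping genes can have been lost or mixed. The authors' table of fold changes, p-values and size-factor-scaled counts was not used.

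Genes with at least 10 summed counts (14603) were scaled with TMM and tested with edgeR 4.0.16 in R 4.3.3 by its quasi-likelihood test, with no covariates beside condition. P-values were adjusted over all genes tested by Benjamini-Hochberg. Log2 fold changes used a prior count of 0.125, and 95% intervals came from the same fit. CPM values are TMM-scaled and were divided by gene length in kb to compare genes. The test was checked on simulated counts.

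The members and gene lists were chosen with earlier results of these data known. Named genes were drawn from the 9 members, list genes with an adjusted p of at most 0.05 or among the 3 highest per kb, the highest markers, genes overlapping a member, and the genes most correlated with a member. Further genes (such as Cldn1, Amotl2, Sox17, Tek, Nr3c1, Jam3, Mfsd2a, Slco1a4 and the epithelial genes) were named after their values were seen. Alternatives were DESeq2 1.42.0, other scalings, other count minimums, another prior count, the replicate number as a block, other call rules, and leaving out each library. Same-numbered libraries deviated from their group means with correlations of 0.024, 0.17 and 0.058, and differently numbered ones with -0.18 to 0.13. Deviations from a mean of 3 libraries are not independent, so these values cannot decide whether the numbers mark pairs. The main test did not take the numbers as pairs. The level of 1 junction gene is not reported here.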

Additional observations from a re-analysis of the deposited data

How the results depend on the processing

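Over 13 alternatives, the log2 fold changes of Ocln, Marveld2, Cldn12, F11r and Jam2 kept their sign and did not pass the test. Leaving out each library in turn gave a log2 fold change of -2.14 to -1.68 for Cldn4, which lost its call in 5 of these 6 fits, of -0.16 to 0.059 for Tjp1 and of -0.017 to 0.39 for Cgn. Tjp1 turned positive in 3 of those fits and Cgn negative in 1, without Veh replicate 2. The cause was not tested. Cldn4 was called in the other 7 alternatives, DESeq2 among them. Cldn4 had a log2 fold change of -1.94 with the replicate block (edgeR's adjusted p = 0.0273), which changed no call among the transcripts described. The number of genes called was 71, and 39 to 112 with each library left out. It was 109 with at least 1 count required, 341 by adjusted p alone, 374 with the unadjusted p and the fold change, and 82 with the replicate block. Of the junction lists, 1 gene was called, 0 to 1 with each library left out and 2 by adjusted p alone. Of the tight junction transcripts, 1 was called, and 0 to 1 with each library left out. Cldn4 and Cgn had the fewest counts of the transcripts tested, 164 and 238 over the 6 libraries.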

Other observations

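The barrier transporters of the brain endothelial list gave values beside the junction genes. Slc2a1, which encodes the glucose transporter of the BBB, averaged 497 ± 34.2 CPM (mean ± SD of 3 libraries) with Hcy and 621 ± 14.2 CPM with Veh, with no overlap between the groups and an adjusted p of 0.0536 from edgeR's test. For Slc2a1 this value was 0.00421 in DESeq2, 0.0405 with at least 1 count required and 0.045 with filterByExpr. In edgeR it was 0.0691 with the replicate block, 0.0567 with DESeq2 size factors and 0.0514 with library totals alone. The prior count of 2 left it at 0.0536. It was 0.0111 without Veh replicate 3, and 0.0940 to 0.260 without any of the other libraries. Slc7a5, a large neutral amino acid transporter, averaged 161 ± 10.7 CPM with Hcy against 122 ± 3.37 CPM (log2 fold change 0.40, adjusted p = 0.0297 from edgeR's test), under the fold-change threshold. When single libraries were left out, the adjusted p of Slc7a5 exceeded 0.05 in 5 of 6 cases, with a maximum of 0.148.

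By Pearson correlation of log2 CPM over the 6 libraries among 11788 genes, the pattern most like Ocln was that of Extl3 (0.998), the one most like Tjp1 that of Kmt2a (0.997), and the one most like F11r that of Arid5a (0.998). For Marveld2 it was Tecpr1 (0.992), for Cldn12 Zfp26 (0.991), for Jam2 Irak1 (0.991) and for Cgn Clptm1 (0.989), while Cldn4 was left out for its low counts. With 6 libraries and this many genes such values are descriptions only.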
